A study of Homo sapiens with 24 samples.

Results

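The subject is the mRNA of the subunits of the 3 nuclear RNA polymerases in AML cells exposed to a pair of adenosine analogs. Members are the rows of the count table whose symbol begins with POLR1, POLR2 or POLR3 and holds no hyphen, and 31 of the 23354 genes of the table meet that rule. By symbol 5 begin with POLR1, 16 with POLR2 and 10 with POLR3. By role, 3 belong to RNA polymerase I alone (POLR1A, POLR1B, POLR1E), 9 to RNA polymerase II alone and 10 to RNA polymerase III alone. A further 5 (POLR2E, POLR2F, POLR2H, POLR2K, POLR2L) are subunits of all 3 enzymes in spite of their names, and POLR1C and POLR1D serve both Pol I and Pol III. The last pair is POLR2M, which encodes a protein associated with Pol II, and POLR2J4, a pseudogene.

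MV4-11 and KG-1a are established human AML cell lines, labelled as wild type. Cells of each line received no treatment, 1 µM 8CA (8-chloro-adenosine) or 1 µM 8AA (8-amino-adenosine), and were sampled at 8 h or 24 h, which gives 12 groups of 2 libraries, A and B, and 24 libraries in all. 8CA carries a chlorine atom and 8AA an amino group at the same position of the adenine base, and no group received both. The labels do not say whether A and B came from separate cultures, so p-values measure the spread between these samples, which may be technical.

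Pol I transcribes the large ribosomal RNA precursor in the nucleolus, Pol II transcribes mRNA and many non-coding RNAs, and Pol III transcribes tRNA, 5S ribosomal RNA and other short RNAs. Each enzyme is built on its own pair of large subunits, which form the catalytic cleft, and the small common subunits hold the 3 enzymes' cores together. Nucleoside analogs such as 8CA and 8AA are known to be turned into triphosphates in cells and to act on RNA synthesis, and fast-growing leukemia cells depend on ribosome production. All values here are mRNA levels of the subunits, not polymerase protein or activity.

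Total counts lay between 18633963 and 24520078 per library, and the 31 members together took 0.212% to 0.268% of them. The replicates of a group differed by a chi-square per degree of freedom of 1.43 to 5.2, except KG-1a with 8AA at 24 h, where it was 12.3, so that pair stands apart. Of the marker genes of the labelled lines, FLT3 read 415 to 596 CPM (counts scaled to the TMM-adjusted library size) in MV4-11 and at most 1.38 in KG-1a, and CD34 read 340 to 656 CPM in KG-1a and at most 0.165 in MV4-11. LYZ, MEIS1 and FCGR1A went with FLT3, and PROM1 with CD34. HOXA9, listed for MV4-11, went the other way, with 6.87 to 9.01 CPM there and 23.2 to 28.9 in KG-1a. CD33, listed for both lines, read 102 to 135 CPM in MV4-11 and only 0.364 to 1.06 in KG-1a. Of 8 markers of other cells, CD3E, a T cell receptor component, was measured in KG-1a at 37.9 and 38.2 CPM untreated and 81.7 and 69.8 CPM with 8AA at 24 h. Its part in the results below was not tested.

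Several members fell together, and the 200 bases before the RefSeq start of 4 of them are shown for that reason. POLR1A and POLR1B encode the large subunits of Pol I and fell with 8AA. POLR2L and POLR3K encode small subunits and fell with 8CA at 24 h. Capitals mark matches, on either strand, to the ETS core CCGGAAG or the GC box GGGCGG, and POLR1A held neither. Sequences are from RefSeq on GRCh38.p14, read 5′ to 3′ on the strand of the gene. They lie at chr2:86105887-86106086 (minus strand), chr2:112542265-112542464 (plus), chr11:842530-842729 (minus) and chr16:53609-53808 (minus), and RefSeq gives POLR1B another start upstream that is not shown.
POLR1A: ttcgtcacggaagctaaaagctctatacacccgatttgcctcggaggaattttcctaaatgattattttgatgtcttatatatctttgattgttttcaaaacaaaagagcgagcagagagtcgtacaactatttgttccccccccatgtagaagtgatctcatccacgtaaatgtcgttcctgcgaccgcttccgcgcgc
POLR1B: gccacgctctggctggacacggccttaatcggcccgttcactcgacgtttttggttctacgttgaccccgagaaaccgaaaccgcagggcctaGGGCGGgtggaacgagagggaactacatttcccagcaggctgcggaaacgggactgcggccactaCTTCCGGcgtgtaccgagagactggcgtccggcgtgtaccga
POLR2L: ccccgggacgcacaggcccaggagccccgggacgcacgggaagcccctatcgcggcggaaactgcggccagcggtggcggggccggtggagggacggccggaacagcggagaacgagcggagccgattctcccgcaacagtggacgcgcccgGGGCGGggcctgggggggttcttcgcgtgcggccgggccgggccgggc
POLR3K: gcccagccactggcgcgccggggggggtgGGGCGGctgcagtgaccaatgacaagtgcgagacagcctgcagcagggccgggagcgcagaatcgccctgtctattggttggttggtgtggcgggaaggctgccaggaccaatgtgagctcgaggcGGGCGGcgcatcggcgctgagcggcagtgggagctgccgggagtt
Of the 31 members, 21 had such a window in the RefSeq table. A gene with several windows was counted if any of them held a match. GGGCGG was present for 16 of these 21 members and for 43.9% of the 27305 genes with a window, and CCGGAAG for 7 of 21 and for 9.32%. The E-box CACGTG was present for 2 of 21 and for 6.74%, and TATAAA for 1 of 21 and for 10.5%, all counted on either strand. These are letter matches only.

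In the file, whose positions were taken as hg19, POLR1A spans chr2:86253451-86333278 and POLR1B chr2:113299492-113334727. POLR2L spans chr11:839721-842529, and POLR3K spans chr16:96979-103632. None of these 4 overlaps another gene of the table, while 18 of the 31 members do. POLR2M, which lies wholly within the span of another gene, GCOM1, held 0 to 4 reads per library. It did not pass the filter on low counts and was not tested, and 30 members passed that filter in both lines.

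Before treatment, the mRNA of the large Pol II subunits was more abundant than that of the large Pol I subunits, and that of the large Pol III subunits was lowest, on the scale of CPM per kb of exon. At 8 h in MV4-11 the largest subunits stood at 75.4 (POLR2A), 30.5 (POLR1A) and 13.7 (POLR3A) CPM per kb, and in KG-1a at 58.0, 42.5 and 15.1. At 24 h the untreated levels of the same 3 genes were 75.5, 30.7 and 13.9 in MV4-11 and 56.0, 37.9 and 14.8 in KG-1a. The order POLR2A over POLR1A over POLR3A was the same in all 4 untreated groups. The second largest subunits kept it too, with POLR2B at 57.3 to 64.8, POLR1B at 25.8 to 30.1 and POLR3B at 9.37 to 10.8 CPM per kb. POLR2J3 and POLR2J4 were the lowest of the tested members, at 1.18 to 1.83 CPM per kb.

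The lines were first compared without treatment. In the fit of all 24 libraries, with the quasi-likelihood test of edgeR, adjusted by Benjamini-Hochberg over all genes, 11 members were higher and 12 lower in untreated MV4-11 than in KG-1a at 8 h, where 40.1% of all genes tested were higher and 42.1% lower. At 24 h 13 were higher and 9 lower, against 41% of all genes in each direction, and with scaling by library size alone the split was 8 and 10. With higher and lower calls added up, the share of tested members called was below that of all genes at both times. By direction, the share called higher at 24 h was slightly above that of all genes, and the other shares were below. POLR2E, common to all 3 enzymes, was higher in MV4-11 by a log2 difference of 1.01 ± 0.06 (SE) at 8 h and 0.91 ± 0.06 at 24 h. POLR2F, also common to all 3, was lower in MV4-11, at -0.90 ± 0.07 and -0.91 ± 0.07, and POLR2K stood at -0.69 ± 0.06 at both times. POLR1A was lower in MV4-11, at -0.39 ± 0.04 at 8 h and -0.20 ± 0.04 at 24 h, and POLR2A higher by 0.46 ± 0.05 and 0.53 ± 0.05. The common subunits thus differed in direction between the lines. Scaling by library size alone moved the log2 differences of the 24 h comparison by -0.11.

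The reference for each treated group was the untreated pair of its line and time. A gene was called higher or lower at an adjusted p below 0.05 in the quasi-likelihood test of edgeR (Benjamini-Hochberg over all genes tested), and this is the adjusted p given throughout. In MV4-11 with 8CA at 8 h, 0 members were higher and 6 lower, when 4.58% of all genes were higher and 5.77% lower. With 8AA at 8 h, 1 was higher and 13 lower, against 13.6% and 15.6% of all genes. With 8CA at 24 h, 5 were higher and 12 lower, against 21.2% and 22.7%. With 8AA at 24 h, 1 was higher and 9 lower, against 13.9% and 15.3%. Scaling by library size alone gave 1 and 5 with 8CA at 8 h, 3 and 13 with 8AA at 8 h, and 2 and 7 with 8AA at 24 h.

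In KG-1a with 8CA at 8 h, 0 members were called by edgeR, and 0.7% of all genes were higher and 0.181% lower. With 8AA at 8 h, 0 were higher and 13 lower, against 16.7% and 18.0% of all genes. With 8CA at 24 h, 4 were higher and 16 lower, against 23.4% and 24.0%. With 8AA at 24 h, 3 were higher and 21 lower, against 25.4% and 26.6%. Scaling by library size alone gave 1 and 11 with 8AA at 8 h, 5 and 16 with 8CA at 24 h, and 4 and 18 with 8AA at 24 h. In 7 of these 8 comparisons the share of the 30 tested members called lower was above that of all genes, and the share called higher was below it in all 8. In bulk cultures, fewer cells that express a gene and less of its RNA per cell cannot be told apart.

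The counts depended on single libraries in some comparisons. In MV4-11 with 8CA at 8 h 3 were lower without untreated replicate A or without 8CA replicate B. With 8AA at 24 h there 4 were lower without untreated replicate A and 5 without 8AA replicate A, and 0 were higher without any 1 of the 4. In KG-1a with 8AA at 8 h 8 were lower without untreated replicate B, and 1 was higher without 8AA replicate B. With 8CA at 24 h 2 or 3 were higher in MV4-11 and 1 or 2 in KG-1a when any 1 library was left out. The 2 drugs share their untreated libraries, so their comparisons are not independent.

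Over the 8 comparisons there were 104 calls of members. None of these calls changed direction under any alternative fit, and 70 were kept in every one. Of the 31 members, 24 were called lower at least once, 8 higher at least once and 4 both (POLR1D, POLR2A, POLR3C, POLR3D). The members that were higher only were POLR2J2, POLR2J3, POLR2J4 and POLR3GL. POLR2G, a Pol II stalk subunit, and POLR3F, a Pol III subunit, were tested and never called, and POLR2M was never tested. Lower in all 4 comparisons at 24 h were 8 members, namely POLR1B, POLR2B, POLR2C, POLR2D, POLR2E, POLR2H, POLR2L and POLR3K. Some of these calls were lost without single libraries, as given below. For counts over several comparisons the share of all genes was not computed, so these counts cannot be set against it.

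**Figure D1:**
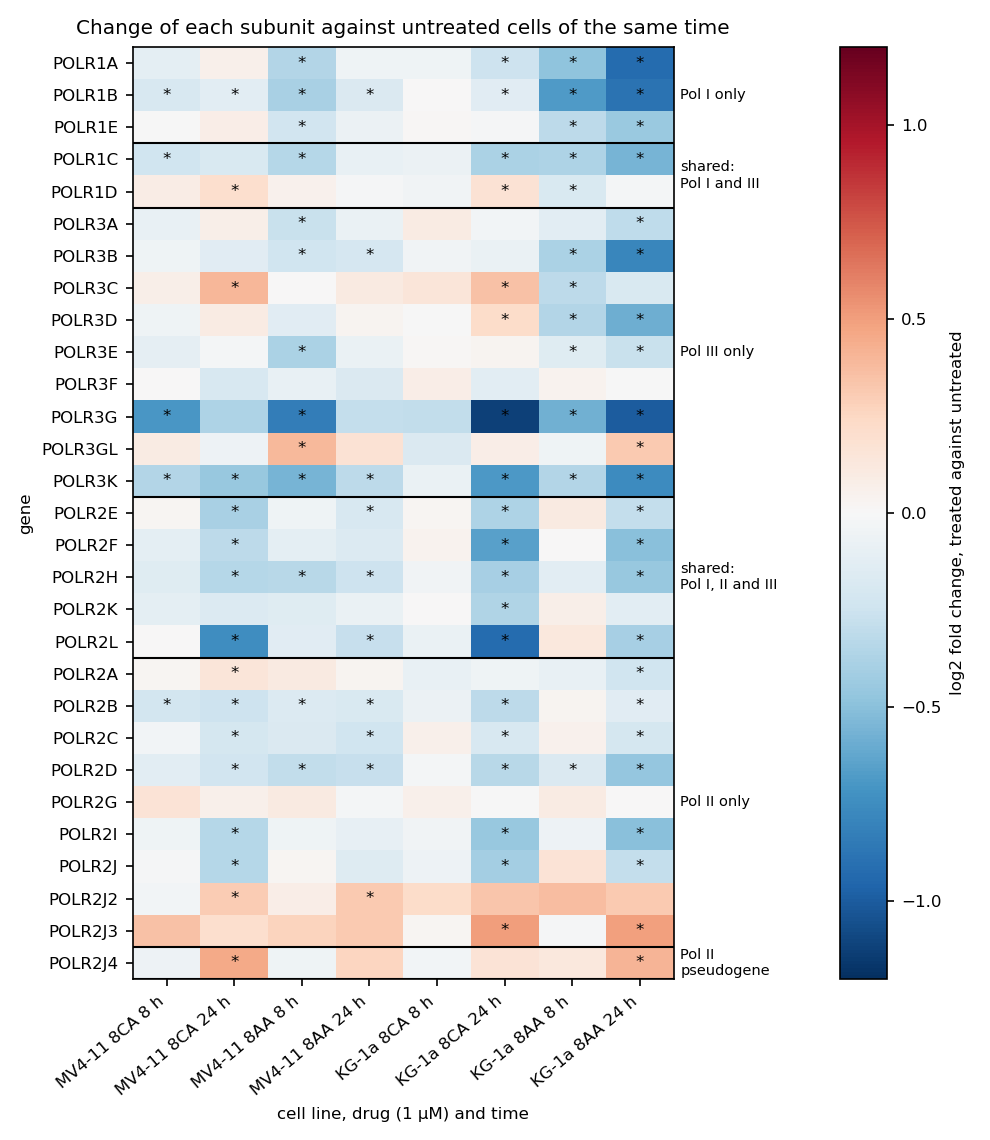
Log2 fold change of tested members (vertical axis, grouped by polymerase) in each line, drug and time (horizontal axis) against untreated cells of the same time. Stars mark an adjusted p below 0.05. The Pol I subunits at the top are lowest with 8AA in KG-1a, down to -0.92 for POLR1A, and the subunits common to all 3 enzymes are mostly starred as lower with 8CA at 24 h and carry no star with 8CA at 8 h.

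The subunits of Pol I alone fell with 8AA at 8 h in both lines and at 24 h in KG-1a. With 8AA, 3 of 3 fell at 8 h in each line and 3 of 3 in KG-1a at 24 h, with median log2 changes of -0.36 in MV4-11 at 8 h, -0.48 in KG-1a at 8 h and -0.88 in KG-1a at 24 h, where 15.6%, 18.0% and 26.6% of all genes fell. In MV4-11 with 8AA at 24 h 1 of 3 fell, with a median of -0.07, against 15.3% of all genes. With 8CA, 1, 1, 0 and 2 of 3 fell in MV4-11 at 8 h and 24 h and KG-1a at 8 h and 24 h. The shares of all genes that fell in these were 5.77%, 22.7%, 0.181% and 24.0%.

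POLR1A, the largest catalytic subunit of Pol I, read 206.9 and 216 CPM in untreated MV4-11 at 8 h, 187 and 202 with 8CA, and 167 and 163 under 8AA. KG-1a at 24 h gave 258 and 267 CPM untreated, 222 and 219.5 with 8CA, and 139.9 and 138 under 8AA. At 8 h in KG-1a the values were 299.6 and 289 CPM untreated, 284 and 285 with 8CA, and 212 and 209 under 8AA. The 8AA libraries lay below all others of their line and time in each of these sets. The log2 change with 8AA was -0.36 ± 0.05 in MV4-11 at 8 h (adjusted p = 6.38e-05), -0.48 ± 0.04 in KG-1a at 8 h (6.72e-07) and -0.92 ± 0.04 in KG-1a at 24 h (3.99e-10). With 8CA it was called in KG-1a at 24 h only, at -0.25 ± 0.04 (0.000149). In MV4-11 at 24 h POLR1A read 219 and 206.9 CPM untreated, 225 and 219.6 with 8CA, and 206.6 and 206 under 8AA, and neither drug's change passed the test (adjusted p = 0.311 and 0.492).

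POLR1B, the second largest Pol I subunit, behaved likewise but was also called with 8CA at several points. In MV4-11 at 8 h its values were 142 and 141 CPM untreated, 126 and 122.6 with 8CA, and 107 and 110.2 under 8AA, and the 3 groups did not overlap. KG-1a cells at 8 h gave 167 and 163 CPM untreated, 164 and 166 with 8CA, and 103 and 103 under 8AA. At 24 h in KG-1a they were 153 and 151 CPM untreated, 139 and 138 with 8CA, and 81.3 and 83.7 under 8AA. The 8AA pair thus stood apart from both other pairs in KG-1a, with log2 changes of -0.68 ± 0.04 at 8 h (adjusted p = 3.43e-08) and -0.88 ± 0.04 at 24 h (8.38e-10). At 24 h in MV4-11 the values were 144 and 141 CPM untreated, 133 and 128 with 8CA, and 125 and 127 under 8AA. POLR1B fell there by -0.13 ± 0.04 with 8CA and -0.18 ± 0.04 with 8AA, and the first call was lost without either untreated library or 8CA replicate B (adjusted p up to 0.187) and the second without untreated replicate A (0.0512). At 8 h its fall with 8CA there, -0.19 ± 0.04, was lost without untreated replicate A or 8CA replicate B (up to 0.0804). In KG-1a its fall with 8CA at 24 h was -0.14 ± 0.04, and that call was lost without each of the 4 libraries in turn, with adjusted p up to 0.0892.

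POLR1E, a subunit of Pol I that works in initiation, fell with 8AA by -0.23 ± 0.06 in MV4-11 at 8 h, -0.32 ± 0.05 in KG-1a at 8 h and -0.45 ± 0.05 in KG-1a at 24 h. It was not called with 8CA in either line at either time, where its log2 changes lay between -0.02 and 0.08. The MV4-11 call was lost without untreated replicate B or 8AA replicate A, at an adjusted p of up to 0.0714. POLR1C, which Pol I shares with Pol III, fell with 8AA in 3 of 4 comparisons, by -0.34 ± 0.07 in MV4-11 at 8 h, -0.37 ± 0.07 in KG-1a at 8 h and -0.56 ± 0.07 in KG-1a at 24 h. With 8CA POLR1C fell by -0.38 ± 0.07 in KG-1a at 24 h. In MV4-11 at 8 h it was called lower with 8CA at -0.24 ± 0.07 (adjusted p = 0.0497), a call that was lost without any 1 of its 4 libraries. POLR1D, its partner in both enzymes, rose with 8CA at 24 h by 0.20 ± 0.05 in MV4-11 and 0.17 ± 0.05 in KG-1a and fell with 8AA in KG-1a at 8 h by -0.18 ± 0.05. The MV4-11 rise was lost without replicate A of either group (adjusted p up to 0.0696), the KG-1a rise without any 1 of its 4 libraries (up to 0.0978), and the KG-1a fall without untreated replicate B or either 8AA library (up to 0.148).

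Subunits of Pol I that the table lists under older symbols were outside the rule and were looked up by their RefSeq synonyms. CD3EAP, now POLR1G, fell in 6 of 8 comparisons, most in KG-1a, by -0.98 ± 0.09 with 8AA at 8 h, -0.83 ± 0.09 with 8CA at 24 h and -1.31 ± 0.10 with 8AA at 24 h. TWISTNB, now POLR1F, fell with 8AA in all 4 comparisons, by -0.36 ± 0.10 and -0.30 ± 0.10 in MV4-11 at 8 h and 24 h and by -0.57 ± 0.08 and -0.66 ± 0.09 in KG-1a. ZNRD1, now POLR1H, was not called in any treated comparison, with log2 changes from -0.10 to 0.28. CRCP, a Pol III subunit, rose by 0.18 ± 0.05 with 8CA in MV4-11 at 24 h and fell by -0.29 ± 0.06 with 8AA in KG-1a at 24 h.

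**Figure D2:**
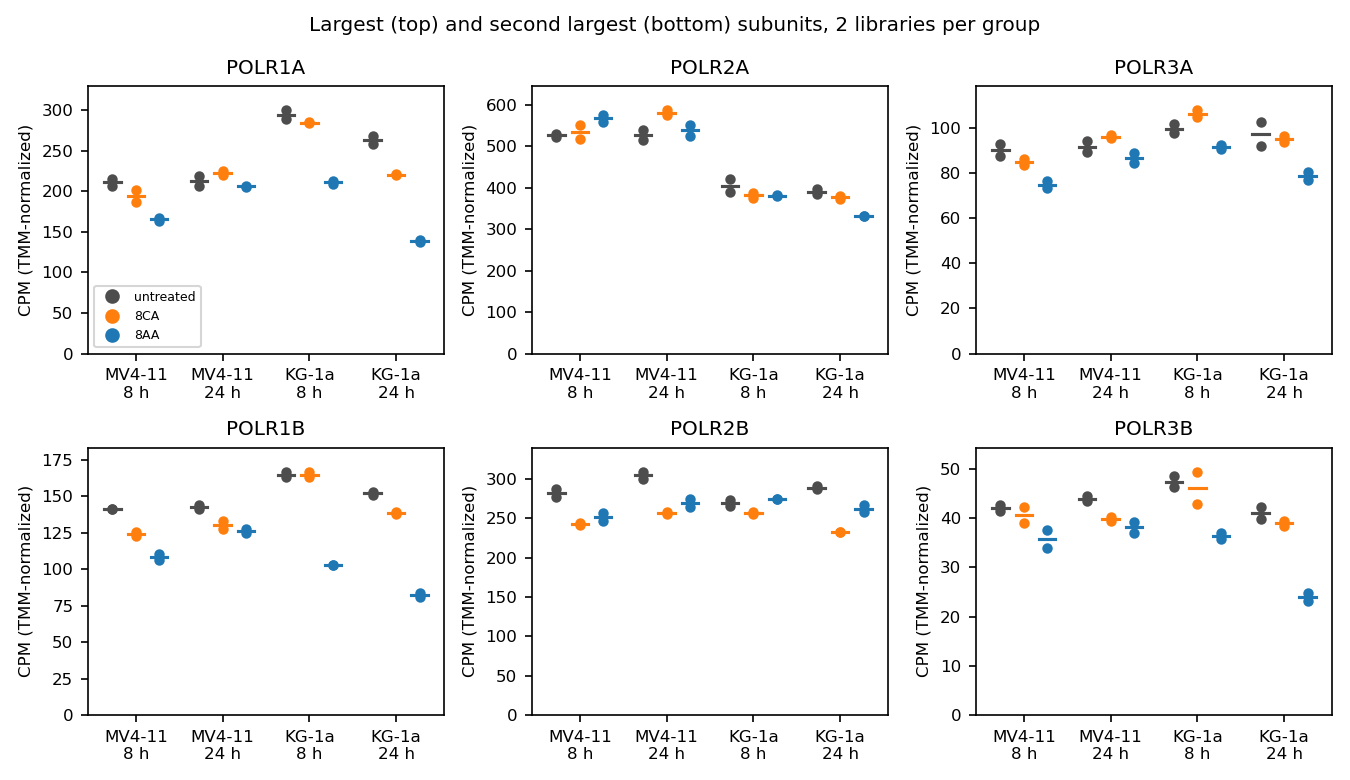
CPM (TMM-normalized, axis from 0) of the largest subunits in the top row and the second largest in the bottom row, by line and time. Points are the 2 libraries of a group and bars their mean. The blue 8AA points of POLR1A, POLR1B and POLR3B drop below the grey untreated ones in KG-1a, where the 8AA points of POLR2A lie at 330.4 to 382 CPM and those of POLR2B at 258 to 275 CPM.

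POLR2A, the largest subunit of Pol II, which carries the C-terminal domain, read 529.8 and 522 CPM in untreated MV4-11 at 8 h, 518 and 550.5 with 8CA, and 559 and 575 under 8AA. KG-1a at 8 h gave 419.8 and 389.7 CPM untreated, 387 and 375 with 8CA, and 379 and 382 under 8AA. None of these changes at 8 h passed the test (adjusted p from 0.0774 to 0.808). At 24 h the values in MV4-11 were 538 and 515 CPM untreated, 575 and 586 with 8CA, and 525 and 552 under 8AA. KG-1a cells at 24 h gave 384 and 397 CPM untreated, 381 and 373 with 8CA, and 330.4 and 331 under 8AA. POLR2A thus rose with 8CA in MV4-11 at 24 h by 0.14 ± 0.04 (adjusted p = 0.0169), which was lost without untreated or 8CA replicate B (adjusted p up to 0.143), and fell with 8AA in KG-1a by -0.24 ± 0.04 (0.000312).

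POLR2B, the second largest Pol II subunit, was lower at both times in MV4-11 and at 24 h in KG-1a. In MV4-11 at 8 h it read 276 and 286 CPM untreated, 241 and 244 with 8CA, and 246 and 257 under 8AA. At 24 h there it read 309 and 300.4 CPM untreated, 256 and 258 with 8CA, and 264 and 274 under 8AA. In KG-1a it read 273 and 266 CPM untreated, 256 and 258 with 8CA, and 275 and 274 under 8AA at 8 h, and at 24 h 291 and 287 untreated, 233 and 233 with 8CA, and 266 and 258 under 8AA. The 8CA libraries were the lowest of each set. The fall with 8CA was -0.22 ± 0.04 and -0.25 ± 0.04 in MV4-11 at 8 h and 24 h and -0.31 ± 0.04 in KG-1a at 24 h. With 8AA it was -0.16 ± 0.04, -0.18 ± 0.04 and -0.14 ± 0.04 in the same 3 settings. The last was lost with scaling by library size or upper quartile and in a fit of the compared libraries alone (adjusted p up to 0.338), and the first without untreated replicate B or 8AA replicate A in MV4-11 (up to 0.0756).

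The 9 subunits of Pol II alone include POLR2J2 and POLR2J3, near copies of POLR2J that were never called lower. Of the 9, 1 fell in MV4-11 with 8CA at 8 h and 2 with 8AA, and 0 and 1 in KG-1a. These counts at 8 h are near or below the shares of all genes that fell (5.77%, 15.6%, 0.181% and 18.0%). At 24 h with 8CA 5 fell in each line, and with 8AA 3 fell in MV4-11 and 6 in KG-1a, against 22.7% and 24.0% of all genes with 8CA and 15.3% and 26.6% under 8AA. POLR2D, part of the stalk that binds RNA leaving the enzyme, fell with 8AA in all 4 comparisons, by -0.30 ± 0.05 and -0.27 ± 0.05 in MV4-11 at 8 h and 24 h and by -0.17 ± 0.06 and -0.46 ± 0.06 in KG-1a. The -0.17 was lost without any 1 of its 4 libraries (adjusted p up to 0.155). POLR2I, a small subunit that takes part in proofreading, fell at 24 h with 8CA by -0.34 ± 0.09 in MV4-11 and -0.45 ± 0.09 in KG-1a, and with 8AA by -0.50 ± 0.09 in KG-1a. The MV4-11 call was lost without untreated replicate B or 8CA replicate A (adjusted p up to 0.057).

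Most of the 5 subunits common to all 3 enzymes fell with 8CA at 24 h. With 8CA 4 of 5 fell in MV4-11 and 5 of 5 in KG-1a at 24 h, with median log2 changes of -0.34 and -0.40, where 22.7% and 24.0% of all genes fell. With 8AA 3 of 5 fell in MV4-11 and 4 of 5 in KG-1a, with medians of -0.19 and -0.40, against 15.3% and 26.6% of all genes. At 8 h 0 of 5 fell with 8CA in either line, and with 8AA 1 of 5 fell in MV4-11 (POLR2H) and 0 in KG-1a. Of all genes 5.77% and 0.181% fell with 8CA at 8 h in MV4-11 and KG-1a, and 15.6% and 18.0% with 8AA.

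POLR2L, a small common subunit, had the largest log2 fall of the 5 with 8CA at 24 h in both lines. In MV4-11 at 24 h it read 41.1 and 41.5 CPM untreated, 23.8 and 25.3 with 8CA, and 33.8 and 34.2 under 8AA. KG-1a at 24 h gave 46.0 and 46.2 CPM untreated, 25.9 and 22.5 with 8CA, and 39.2 and 30.6 under 8AA. The 3 groups did not overlap in either line, with 8CA lowest. At 8 h the ranges overlapped in MV4-11, with 44.6 and 49.4 CPM untreated, 45.1 and 49.7 with 8CA, and 38.3 and 47.1 under 8AA. In KG-1a at 8 h the values were 48.6 and 46.8 CPM untreated, 47.2 and 42.7 with 8CA, and 55.8 and 48.1 under 8AA. The log2 change with 8CA at 24 h was -0.75 ± 0.09 in MV4-11 (adjusted p = 9.57e-06) and -0.93 ± 0.11 in KG-1a (5.03e-06). With 8AA it was -0.28 ± 0.09 in MV4-11, lost without any 1 of the 4 libraries (adjusted p up to 0.0991), and -0.40 ± 0.10 in KG-1a.

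POLR2F fell with 8CA at 24 h by -0.32 ± 0.08 in MV4-11 and -0.65 ± 0.06 in KG-1a, and by -0.50 ± 0.06 with 8AA in KG-1a. The MV4-11 call was lost without untreated replicate B (adjusted p = 0.0543). POLR2E fell with 8CA by -0.39 ± 0.05 and -0.37 ± 0.07 in MV4-11 and KG-1a, and with 8AA by -0.19 ± 0.05 and -0.29 ± 0.07. POLR2H fell by -0.34 ± 0.05 and -0.40 ± 0.06 with 8CA, and by -0.25 ± 0.05 and -0.46 ± 0.06 with 8AA. POLR2K fell with 8CA in KG-1a by -0.36 ± 0.06, and its other 24 h changes, -0.16 (8CA, MV4-11), -0.08 (8AA, MV4-11) and -0.13 (8AA, KG-1a), did not pass the test. The MV4-11 fall of POLR2E with 8AA was lost without untreated or 8AA replicate A (adjusted p up to 0.0706).

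**Figure D3:**
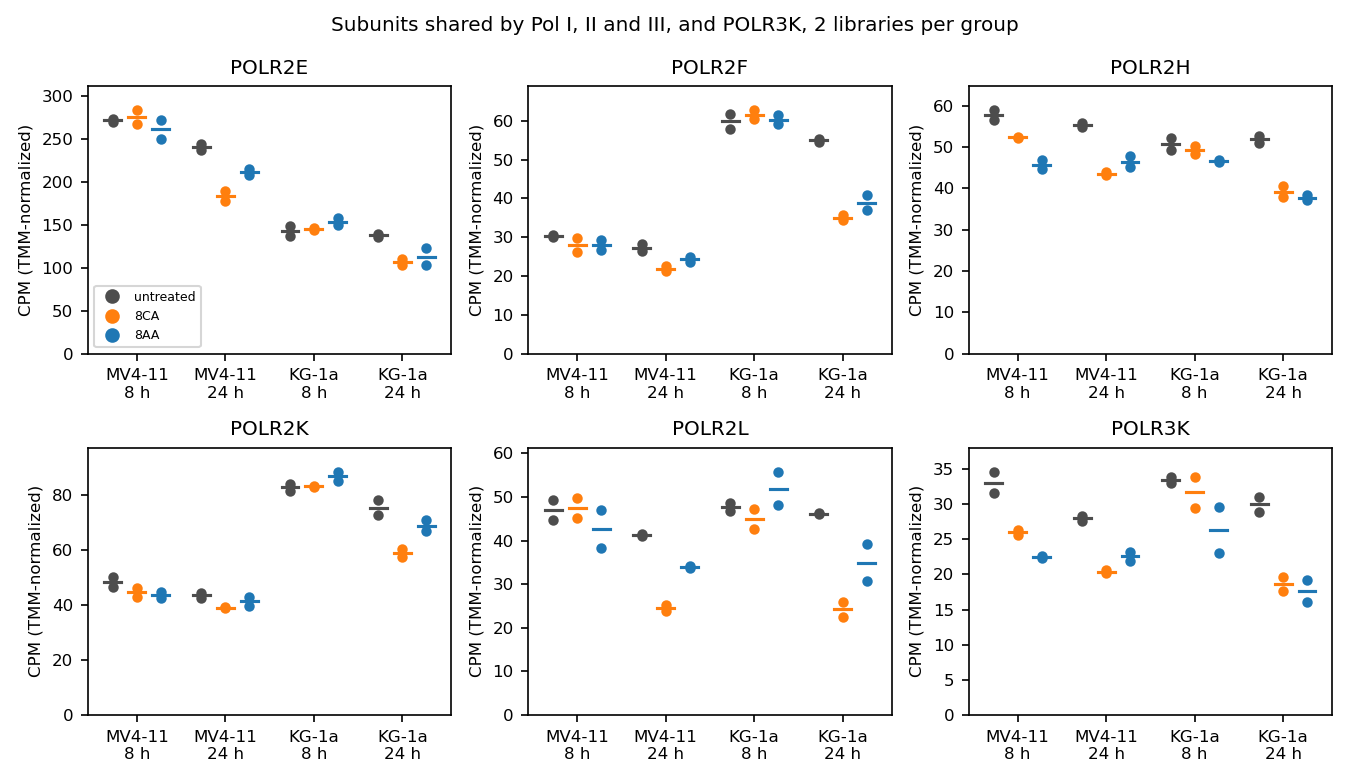
CPM (TMM-normalized, axis from 0) of the 5 subunits common to Pol I, II and III and of POLR3K, by line and time, with points for the 2 libraries of a group and bars for their mean. For POLR2L at 24 h the orange 8CA points lie at 22.5 to 25.9 CPM and the untreated points at 41.1 to 46.2, while at 8 h the 3 colours lie together.

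Pol III subunits fell with 8AA at 8 h in both lines and at 24 h in KG-1a. Of the 10, 6 fell and 1 rose in MV4-11 with 8AA at 8 h, 7 fell in KG-1a at 8 h, and 7 fell and 1 rose in KG-1a at 24 h, with median log2 changes of -0.25, -0.33 and -0.44, where 15.6%, 18.0% and 26.6% of all genes fell. In MV4-11 at 24 h 2 fell with 8AA, near the 15.3% of all genes. With 8CA the numbers that fell were 3 and 2 in MV4-11 at 8 h and 24 h and 0 and 3 in KG-1a, with 1 rise in MV4-11 and 2 in KG-1a at 24 h. The falls with 8CA at 24 h were near the 22.7% and 24.0% of all genes. At 8 h 5.77% and 0.181% of all genes fell with 8CA in MV4-11 and KG-1a, and at 24 h 21.2% and 23.4% rose. With 8AA 13.6% of all genes rose in MV4-11 at 8 h and 25.4% in KG-1a at 24 h.

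POLR3A, the largest subunit of Pol III, read 87.7 and 93.0 CPM in untreated MV4-11 at 8 h, 83.9 and 86.4 with 8CA, and 73.7 and 76.4 under 8AA. In KG-1a at 24 h it read 92.2 and 103 CPM untreated, 93.8 and 96.6 with 8CA, and 80.8 and 77.0 under 8AA. The 8AA libraries were lowest in both, and POLR3A fell with 8AA by -0.27 ± 0.05 and -0.30 ± 0.06. In MV4-11 at 24 h it read 94.2 and 89.7 CPM untreated, 97.1 and 95.6 with 8CA, and 84.6 and 89.0 under 8AA. KG-1a at 8 h gave 97.9 and 102 CPM untreated, 108 and 105 with 8CA, and 90.8 and 92.7 under 8AA. POLR3A was not called in these 2 sets nor with 8CA at any point.

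POLR3B, the second largest Pol III subunit, showed its widest gap in KG-1a at 24 h, with 42.3 and 39.9 CPM untreated, 39.5 and 38.4 with 8CA, and 23.2 and 24.7 under 8AA. At 8 h in KG-1a it read 48.7 and 46.3 CPM untreated, 43.0 and 49.5 with 8CA, and 37.1 and 35.9 under 8AA. The 8AA pair lay below the rest at both times, and POLR3B fell by -0.78 ± 0.08 at 24 h (adjusted p = 5.88e-07) and -0.38 ± 0.07 at 8 h (0.000766). In MV4-11 it read 41.6 and 42.8 CPM untreated, 39.0 and 42.3 with 8CA and 33.9 and 37.5 under 8AA at 8 h, and 44.5 and 43.5, 40.3 and 39.5, and 36.9 and 39.3 at 24 h in the same order. Its 8AA falls there, -0.24 ± 0.07 and -0.21 ± 0.07, were lost, the first without untreated replicate B or 8AA replicate A (adjusted p up to 0.129) and the second without either untreated library or 8AA replicate A (up to 0.155).

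POLR3G and POLR3K were among the Pol III subunits lowered by both drugs. POLR3K, which takes part in termination, read 31.6 and 34.6 CPM in untreated MV4-11 at 8 h, 25.6 and 26.3 with 8CA, and 22.4 and 22.6 under 8AA. At 24 h in MV4-11 it read 27.6 and 28.4 CPM untreated, 20.2 and 20.6 with 8CA, and 23.2 and 21.9 under 8AA. No treated library of MV4-11 reached an untreated one of its time. In KG-1a it read 33.0 and 33.9 CPM untreated, 29.5 and 33.9 with 8CA and 29.5 and 23.1 under 8AA at 8 h, and 31.0 and 28.9, 19.6 and 17.7, and 19.3 and 16.1 at 24 h. POLR3K fell in 7 of the 8 comparisons, by -0.31 to -0.76 on the log2 scale. In KG-1a with 8AA at 8 h its fall of -0.35 ± 0.11 was lost without either untreated library or without 8AA replicate B (adjusted p up to 0.28).

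POLR3C rose with 8CA at 24 h, by 0.40 ± 0.07 in MV4-11 (adjusted p = 0.000209) and 0.36 ± 0.07 in KG-1a (0.000965), and fell with 8AA in KG-1a at 8 h by -0.32 ± 0.08 (0.00425). POLR3D, which pairs with POLR3E in the enzyme, rose with 8CA in KG-1a at 24 h by 0.22 ± 0.07, a call lost without either untreated library or without 8CA replicate B (adjusted p up to 0.127). With 8AA in KG-1a POLR3D fell by -0.35 ± 0.07 at 8 h and -0.58 ± 0.07 at 24 h. POLR3E fell with 8AA in MV4-11 at 8 h by -0.38 ± 0.05 and in KG-1a at 24 h by -0.27 ± 0.04. In KG-1a at 8 h its -0.15 ± 0.04 was lost without any 1 of the 4 libraries (adjusted p up to 0.1). POLR3C overlaps 8 other genes of the table and no source used here says whether strand was used in counting, so reads of these genes may be mixed.

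POLR3G and POLR3GL are paralogs that take the same place in Pol III, POLR3G being known from stem cells and dividing cells and POLR3GL from differentiated ones. POLR3G read 19.3 and 14.4 CPM in untreated MV4-11 at 8 h, 11.4 and 9.10 with 8CA, and 10.8 and 8.17 under 8AA. POLR3GL read 19.0 and 19.2 CPM in the same untreated libraries, 21.1 and 19.8 with 8CA, and 24.0 and 25.9 under 8AA. In this set POLR3G fell by -0.70 ± 0.16 with 8CA and -0.83 ± 0.16 with 8AA, and POLR3GL rose by 0.39 ± 0.08 with 8AA (adjusted p = 0.00138). The 8CA call of POLR3G was lost without untreated replicate A or 8CA replicate B (adjusted p up to 0.128).

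POLR3G in KG-1a at 24 h read 21.2 and 18.5 CPM untreated, 8.63 and 9.68 with 8CA, and 8.14 and 12 under 8AA. POLR3GL read 23.0 and 24.7 CPM untreated, 25.7 and 24.8 with 8CA, and 30.8 and 28.4 under 8AA. Treated and untreated libraries did not overlap for either gene. POLR3G fell by -1.12 ± 0.15 with 8CA (adjusted p = 2.04e-05) and -1.0 ± 0.15 with 8AA (3.63e-05), and POLR3GL rose with 8AA by 0.31 ± 0.07 (0.00238) and with 8CA stood at 0.08 ± 0.08 (0.408).

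POLR3G in KG-1a at 8 h read 22.0 and 27.8 CPM untreated, 20.4 and 20.4 with 8CA, and 16.5 and 16.9 under 8AA, and POLR3GL 28.1 and 25.6, 23.9 and 23.6, and 25.5 and 26.4. In MV4-11 at 24 h POLR3G read 15.4 and 17.4 CPM untreated, 13.0 and 12.4 with 8CA, and 14.9 and 11.9 under 8AA, and POLR3GL 17.4 and 18.2, 16.9 and 17.1, and 20.9 and 19.3. Of these only the POLR3G fall with 8AA in KG-1a at 8 h was called, at -0.58 ± 0.13 (adjusted p = 0.00296), and it was lost without untreated replicate B (0.0707). The ratio of POLR3G to POLR3GL in counts per kb of exon was 0.265 to 0.383 in the 8 untreated libraries and 0.0934 to 0.149 in the 4 treated KG-1a libraries at 24 h. The other 12 treated libraries ranged from 0.111 to 0.305. Those of KG-1a with 8CA at 8 h, 0.301 and 0.305, overlapped their untreated pair of 0.277 and 0.383. All other treated libraries lay below the untreated pair of their own line and time. None of the 50-base windows in the GENCODE transcripts of either gene occurs in the other (0 of 4013 and 0 of 1985). POLR3GL overlaps 8 other genes of the table, like POLR3C.

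**Figure D4:**
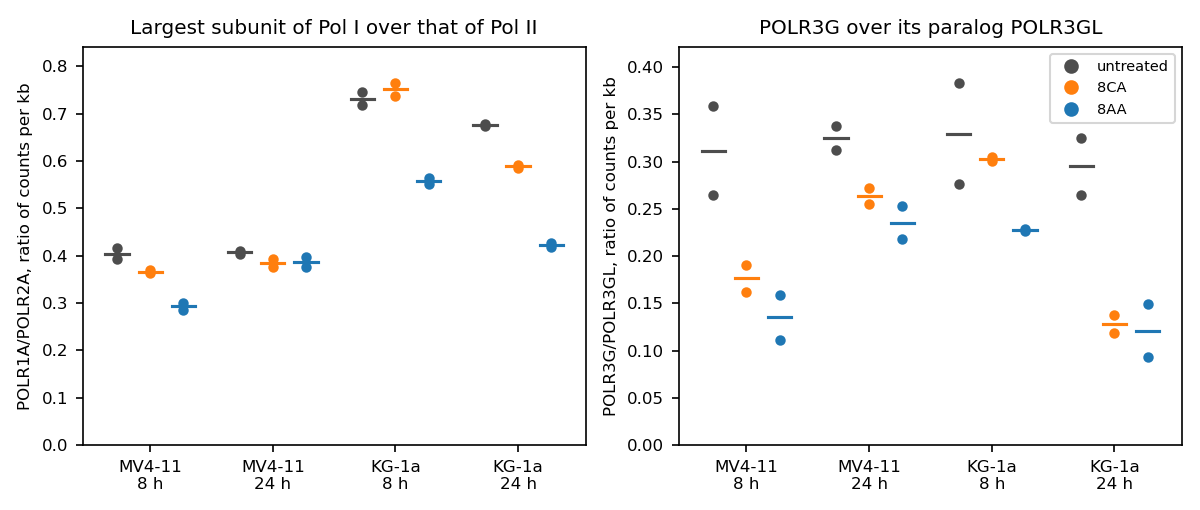
Ratio of POLR1A to POLR2A (left) and of POLR3G to POLR3GL (right) in counts per kb of exon, by line and time. Points are libraries and bars group means. The left ratio runs from 0.675 and 0.678 in untreated KG-1a at 24 h to 0.426 and 0.419 with 8AA, and in MV4-11 at 24 h the 3 groups lie between 0.375 and 0.41.

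Within a library, the ratio of POLR1A to POLR2A in counts per kb of exon sets Pol I against Pol II without any scaling between libraries. In MV4-11 at 8 h it was 0.393 and 0.416 untreated, 0.363 and 0.369 with 8CA, and 0.301 and 0.286 under 8AA. In KG-1a at 8 h it was 0.718 and 0.746 untreated, 0.738 and 0.765 with 8CA, and 0.564 and 0.552 under 8AA. The 8AA libraries were lowest in both lines. The ratio of POLR1B to POLR2B in KG-1a at 24 h was 0.452 in both untreated libraries, 0.511 and 0.507 with 8CA, and 0.262 and 0.278 under 8AA, so that the drugs lay on opposite sides of the untreated pair. POLR3B to POLR2B followed the same order there, with 0.156 and 0.149 untreated, 0.182 and 0.177 with 8CA, and 0.0933 and 0.103 under 8AA. POLR2B itself was called lower there with both drugs. The ratios to POLR2A did not show this order. POLR1A to POLR2A was below the untreated 0.675 and 0.678 with both drugs, at 0.586 and 0.593 with 8CA and 0.426 and 0.419 under 8AA. POLR3A to POLR2A was 0.253 and 0.273 untreated, 0.260 and 0.274 with 8CA, and 0.258 and 0.246 under 8AA. Both treated pairs overlapped the untreated one.

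POLR2J and its near copies moved apart at 24 h. POLR2J, a Pol II subunit, read 32.0 and 31.1 CPM in untreated MV4-11 at 24 h, 25.0 and 24.7 with 8CA, and 26.9 and 29.7 under 8AA. In KG-1a at 24 h it read 21.4 and 21.3 CPM untreated, 16.3 and 15.9 with 8CA, and 19.0 and 15.9 under 8AA. POLR2J fell with 8CA by -0.35 ± 0.07 in MV4-11 and -0.41 ± 0.09 in KG-1a, and with 8AA in KG-1a by -0.28 ± 0.09, a call lost without either untreated library or without 8AA replicate B (adjusted p up to 0.13) and with scaling by library size or upper quartile (up to 0.0763). At 8 h it read 33.2 to 35.9 CPM over the 6 libraries of MV4-11 and 19.4 to 23.8 over those of KG-1a, and was not called.

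POLR2J2 read 14.1 and 13.5 CPM in untreated MV4-11 at 24 h, 16.4 and 17.5 with 8CA, and 17.1 and 17.0 under 8AA, and was called higher with both drugs, at 0.30 ± 0.10 and 0.31 ± 0.10. In KG-1a at 24 h it read 8.92 and 9.46 CPM untreated, 12 and 11.1 with 8CA, and 12.9 and 9.80 under 8AA, and was not called. POLR2J3 read 2.62 and 2.66 CPM in untreated KG-1a at 24 h, 3.78 and 3.72 with 8CA, and 4.22 and 3.15 under 8AA, and was called higher at 0.51 ± 0.18 and 0.49 ± 0.18. The pseudogene POLR2J4 read 9.56 and 8.4 CPM in untreated MV4-11 at 24 h and 12.8 and 11.7 with 8CA, a rise of 0.45 ± 0.11. POLR2J4 in KG-1a at 24 h read 14.3 and 13.6 CPM untreated and 17.6 and 19.4 with 8AA, a rise of 0.40 ± 0.08 that was kept in every alternative fit. The POLR2J4 rise in MV4-11 was lost without untreated replicate B or 8CA replicate A (adjusted p up to 0.0692). The POLR2J2 calls and the POLR2J3 call with 8CA were lost without any 1 of their 4 libraries, and the POLR2J3 call with 8AA without either untreated library or 8AA replicate A (up to 0.367). DESeq2 called none of these POLR2J2 and POLR2J3 changes (adjusted p from 0.0703 to 0.158). At 8 h POLR2J2 ranged from 14.2 to 17.8 CPM in MV4-11 and 7.96 to 11.5 in KG-1a, and POLR2J3 from 2.86 to 4.25 and 2.72 to 3.02.

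The reads of these copies are hard to tell apart. Of all 50-base windows in their GENCODE transcripts, 92.4% of those of POLR2J2, 36.7% of POLR2J, 23.0% of POLR2J3 and 14% of POLR2J4 occur in another of the 4 genes. POLR2J2 and POLR2J3 also overlap other genes of the table on chromosome 7. Their values are therefore uncertain, and the part of shared reads in these changes was not tested.

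Both analogs were given at 1 µM for the same times, so they were compared directly, as 8AA minus 8CA, in 4 comparisons. In MV4-11 at 8 h 7 members differed (1 higher and 6 lower with 8AA), where 2.96% of all genes were higher and 3.7% lower, and at 24 h 7 differed (4 higher and 3 lower) against 11.7% and 9.48%. In KG-1a at 8 h 11 differed (0 higher and 11 lower) against 14.7% and 15.8% of all genes, and at 24 h 16 differed (5 higher and 11 lower) against 20.3% and 21.7%. The split was 1 and 3 with upper-quartile scaling in MV4-11 at 8 h, and 2 and 10 with library size or upper quartile in KG-1a at 8 h. The MV4-11 counts depended on single libraries. At 8 h 3 were left without 8CA replicate A, 0 without 8CA replicate B, 1 without 8AA replicate A and 2 without 8AA replicate B, and at 24 h 2, 5, 3 and 4 in the same order. A fit of the compared libraries alone gave 0 in MV4-11 at 8 h, and 17 and 10 in KG-1a at 8 h and 24 h.

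POLR1A, POLR1B and POLR1E were lower with 8AA than with 8CA in KG-1a at both times. The difference for POLR1A was -0.43 ± 0.04 at 8 h (adjusted p = 2.58e-06) and -0.67 ± 0.04 at 24 h (7.61e-09), for POLR1B -0.68 ± 0.04 (2.8e-08) and -0.75 ± 0.04 (3.31e-09), and for POLR1E -0.34 ± 0.05 (0.000233) and -0.43 ± 0.05 (1.49e-05). In MV4-11 the same 3 differed at 8 h by -0.20 to -0.23, all lost in the fit of the compared libraries alone (adjusted p up to 0.151 over the alternatives). At 24 h in MV4-11 none of the 3 was called, and the 95% confidence interval of the difference ran from -0.21 to -0.01 for POLR1A and from -0.14 to 0.04 for POLR1B. Under older symbols, CD3EAP (-0.62 and -0.49) and TWISTNB (-0.57 and -0.53) were also lower in KG-1a at 8 h and 24 h. ZNRD1 was not called there (0.03 and 0.14). In MV4-11 CD3EAP was lower with 8AA at 8 h (-0.19) and higher at 24 h (0.16).

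For Pol III, 6 of 10 members were lower with 8AA than with 8CA in KG-1a at 8 h, and 6 were lower and 1 higher at 24 h. Of all genes 15.8% were lower at 8 h, and 21.7% lower and 20.3% higher at 24 h. The widest gaps at 24 h were -0.80 ± 0.07 for POLR3D, -0.70 ± 0.08 for POLR3B and -0.54 ± 0.07 for POLR3C. POLR3G was not called between the drugs in any of the 4 comparisons, with 95% intervals of -0.50 to 0.23 and -0.25 to 0.41 in MV4-11 at 8 h and 24 h, and -0.57 to -0.00 and -0.23 to 0.47 in KG-1a. In KG-1a at 24 h the interval left out the gaps given above for POLR3D, POLR3B and POLR3C. The 8 h intervals leave room for falls of the size seen in other Pol III members at 8 h. POLR3GL was called higher with 8AA than with 8CA in 3 of 4, by 0.23 to 0.28, and each of the 3 calls was lost without single libraries (adjusted p up to 0.25).

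The common subunit POLR2L differed in the other direction at 24 h, being higher with 8AA than with 8CA by 0.47 ± 0.09 in MV4-11 (adjusted p = 0.00192) and 0.53 ± 0.11 in KG-1a (0.00113). POLR2E in MV4-11 (0.20 ± 0.05) and POLR2K in KG-1a (0.23 ± 0.06) differed in the same direction, each lost without single libraries (adjusted p up to 0.134 and 0.0597). For the 9 subunits of Pol II alone, 0 differed in MV4-11 at either time, 1 in KG-1a at 8 h and 2 at 24 h. Of all genes 2.96% were higher and 3.7% lower in MV4-11 at 8 h, and 11.7% and 9.48% at 24 h. In KG-1a these shares were 14.7% and 15.8% at 8 h and 20.3% and 21.7% at 24 h. At 24 h in KG-1a POLR2A was lower with 8AA by -0.19 ± 0.04 and POLR2B higher by 0.17 ± 0.04, and both were lost in the fit of the compared libraries alone (adjusted p = 0.0558 and 0.0577). For POLR2A in KG-1a at 8 h the interval of the difference was -0.10 to 0.09.

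**Figure D5:**
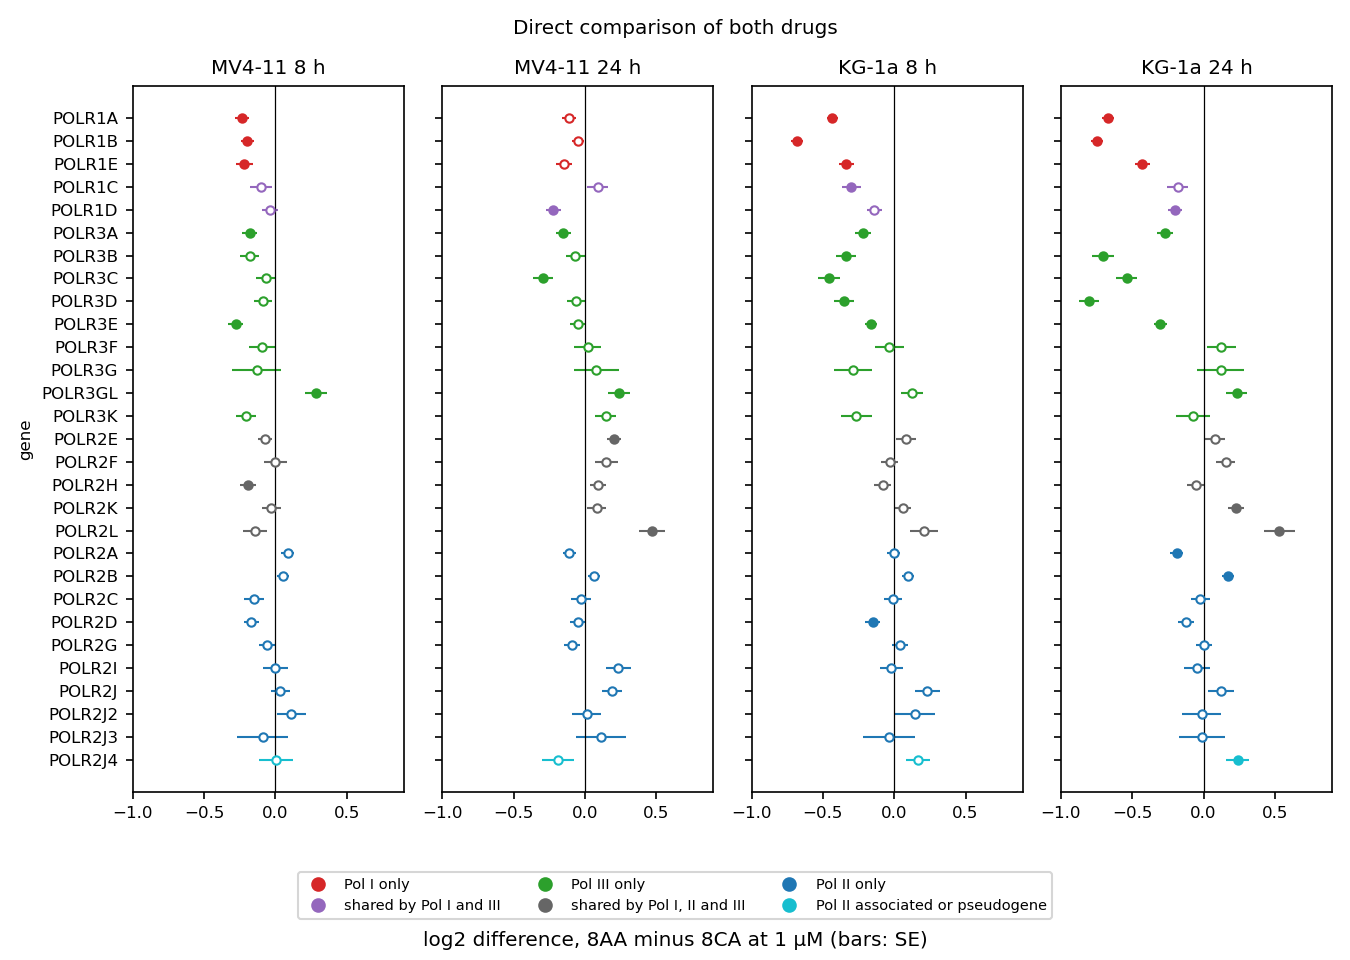
Log2 difference of 8AA minus 8CA (horizontal axis, bars are the SE) for tested members (vertical axis), with 1 panel per line and time. Filled points have an adjusted p below 0.05. The red Pol I points lie at -0.34 to -0.75 in KG-1a, the blue Pol II points near 0, and POLR2L at 0.47 and 0.53 in the 24 h panels.

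The change at 24 h was compared with that at 8 h within each line and drug. With 8CA in KG-1a the 24 h change differed from the 8 h change for 14 members (1 higher and 13 lower), where 11.2% of all genes were higher and 12.7% lower, including 5 of 5 common subunits, by -0.84 ± 0.15 for POLR2L and -0.69 ± 0.09 for POLR2F. In MV4-11 it differed for 5 (2 higher and 3 lower) against 6.48% and 9.83% of all genes, a share near that of all genes in both directions, with POLR2L at -0.76 ± 0.12 and POLR2E at -0.41 ± 0.07. For 8AA in MV4-11 3 members were higher and 0 lower against 2.51% and 2.12% of all genes, among them POLR1A by 0.31 ± 0.07 and POLR3E by 0.31 ± 0.08, both toward a smaller fall at 24 h. In KG-1a 11 differed with 8AA (1 higher and 10 lower) against 7.64% and 10.7%, among them POLR1A at -0.44 ± 0.06 and POLR3B at -0.40 ± 0.10. With 8CA the MV4-11 count was 2 without untreated or 8CA replicate B of 24 h and 3 without untreated replicate B of 8 h or 8CA replicate A of 24 h, and the KG-1a count was 8 without 8CA replicate A of 8 h or 8CA replicate B of 24 h and 9 without 8CA replicate B of 8 h. The MV4-11 8AA count was 0 without untreated replicate B of either time or without 8AA replicate A of 24 h. The KG-1a 8AA count was 2 without 8AA replicate A of 8 h, 5 without untreated replicate B of 8 h, 6 without either untreated library of 24 h and 20 without 8AA replicate A of 24 h.

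The difference between the lines was widest with 8AA at 24 h. In the fit of all 24 libraries the log2 change of 16 members was higher in MV4-11 than in KG-1a, and of 0 lower, where 13.8% of all genes were higher and 8.51% lower in MV4-11 relative to KG-1a. They included 3 of 3 Pol I and 8 of 10 Pol III subunits but 2 of 9 Pol II subunits. The difference, MV4-11 minus KG-1a, was 0.89 ± 0.06 for POLR1A, 0.73 ± 0.06 for POLR1B, 0.64 ± 0.10 for POLR3D and 0.60 ± 0.10 for POLR3B. The count was 10 without untreated replicate A of MV4-11 and 9 without 8AA replicate B of KG-1a. It was 14 with DESeq2 size factors, 12 with upper quartile and 11 with library size alone, with 0 lower in each. With library size alone, 1498 of all genes were higher and 1757 lower. With 8AA at 8 h 5 members differed (5 higher and 0 lower, against 7.49% and 3.6% of all genes, and 5 and 2 with scaling by library size). With 8CA at 24 h 4 were higher and 0 lower, against 5.76% and 5.44%, and with 8CA at 8 h edgeR called 0, against 0.427% and 0.726%. For 8CA at 24 h the counts without 1 library lay between 1 and 3, and for 8AA at 8 h between 2 and 4. POLR2L, -0.75 and -0.93 in the lines with 8CA at 24 h, was not among those that differed.

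Other genes of the same machinery were counted from lists. Of 7 Pol I factors, 2 fell with 8AA in MV4-11 at 8 h, and in KG-1a 3 fell and 2 rose at 8 h and 3 fell and 1 rose at 24 h, with TAF1A of the Pol I promoter complex at -0.53 and TTF1, a terminator binding factor, at 0.29 in KG-1a at 24 h. With 8CA at 24 h 2 rose in MV4-11, and 2 rose and 1 fell in KG-1a. Of all genes 15.6%, 18.0% and 26.6% fell in the 3 comparisons with 8AA, and with 8CA at 24 h 21.2% and 23.4% rose and 22.7% and 24.0% fell. The rises with 8CA were near these shares. Of 21 Pol II general factors, 8 fell and 1 rose with 8AA in KG-1a at 24 h (GTF2H2 of TFIIH at -0.55), and 5 fell and 4 rose with 8CA (GTF2H5 at -0.61). The counts with 8CA were near the shares of all genes, and with 8AA the falls were above and the rises below them. Of 16 Pol III factors, 6 fell and 1 rose with 8AA in KG-1a at 24 h (GTF3A, which binds 5S genes, at -0.62), where 26.6% of all genes fell and 25.4% rose. BRF2, an initiation factor of Pol III, rose with 8CA at 8 h by 0.44 in MV4-11 and by 0.61 in KG-1a, and in KG-1a no member was called in that comparison. RUVBL1, an ATPase used in assembling the polymerases, fell in 6 of the 8 comparisons, down to -0.83 with 8AA in KG-1a at 24 h, and of the 10 tested assembly factors 7 fell there, against 26.6% of all genes.

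The mitochondrial RNA polymerase is a separate enzyme, and of 8 tested genes of mitochondrial transcription 4 fell and 3 rose with 8AA in KG-1a at 24 h, where 26.6% of all genes fell and 25.4% rose. POLRMT, the polymerase itself, fell there by -0.47 and MTERF2, a transcription factor of the organelle, rose by 0.41. In MV4-11 at 24 h 3 fell and 4 rose with 8CA and 3 fell and 2 rose with 8AA, against 22.7% and 21.2% of all genes with 8CA and 15.3% and 13.9% under 8AA. With 8CA in KG-1a at 24 h 3 fell and 1 rose, against 24.0% and 23.4% of all genes. Of 20 listed transcripts of Pol I and Pol III, 9 were in the table, and only 2 passed the filter in MV4-11 and 1 in KG-1a. edgeR called 0 of them in the treated comparisons.

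Members differ in length. Across the 30 tested members Spearman's rho of the log2 change with gene span was 0.45 in MV4-11 and 0.37 in KG-1a with 8CA at 24 h, and 0.14 and 0.08 across all genes tested. With exon length it was 0.31 and 0.20 across the members, and 0.19 and 0.16 across all genes. In MV4-11 median exon length was 2.34 kb for the members that fell there, 3.21 kb for those that rose and 2.31 kb for those not called. In KG-1a it was 2.34, 2.08 and 3.435 kb in the same order. With 8AA at 24 h the rho with gene span was 0.24 and -0.02. For 8AA minus 8CA in MV4-11 at 24 h it was -0.53, and -0.20 across all genes. These are descriptions across genes, which share libraries and are not independent replicates. The part of length in the results above was not tested.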

How the data were processed

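Bulk RNA-seq was made from total RNA (QIAGEN RNeasy Micro Kit) of 24 libraries. The authors deposited raw read counts per gene, not normalized, with no sample pooled. The submitters' processing notes name Trimmomatic, STAR 2.6.0, HTSeq 0.11.1 and edgeR and the builds hg19 and hg38. Positions in the file were taken as hg19. The annotation, counting mode and strand setting were not given in the sources used here.

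Members and gene lists were chosen with earlier results of these data known. Genes passed filterByExpr (minimum count 10) and were TMM-normalized. Each cell line was fitted on its own (12 libraries, 6 groups) with edgeR 4.0.16 in R 4.3.3 (quasi-likelihood test, Benjamini-Hochberg adjustment over all genes, adjusted p below 0.05). Line differences came from a fit of all 24. Values are log2 fold changes ± SE, n = 2 libraries per group. Intervals are 95% from the t distribution of the fit. The fit of each cell line was tested on simulated data for 1 comparison only. The fit of all 24 libraries, the differences between responses and the alternative fits were not tested in this way. All members were counted, and 1 is not reported here by name or in the figures. Values of every library are given for the large subunits, the paralogs, and the called member with the largest rise and fall in each comparison, and from other lists the called gene with the largest rise or fall. Alternatives were DESeq2 1.42.0, other scalings and filters, other sets of libraries, leaving out each library, and a replicate block. Libraries of different groups share only a letter, and the labels do not say whether it pairs them. The A minus B differences of groups correlated between -0.117 and 0.159 (median 0.0784) over 15 pairs of groups in MV4-11. In KG-1a they correlated between -0.0846 and 0.161 (median 0.0244) over 15.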

Additional observations from a re-analysis of the deposited data

Results flagged for a closer look

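Members whose drug response differed between times or between lines by the test of that difference (edgeR, adjusted p below 0.05) are given here as log2 differences. Many were lost when 1 library was left out, as the counts above show.

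Between the 24 h and the 8 h response to 8CA in MV4-11 (24 h minus 8 h), the members that differed included POLR2E at -0.41, POLR2J at -0.33, POLR2J4 at 0.51, POLR2L at -0.76 and POLR3C at 0.33.

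Between the 24 h and the 8 h response to 8AA in MV4-11 (24 h minus 8 h), the members that differed included POLR1A at 0.31 and POLR3E at 0.31.

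Between the 24 h and the 8 h response to 8CA in KG-1a (24 h minus 8 h), the members that differed included POLR1A at -0.20, POLR1C at -0.31, POLR1D at 0.21, POLR2B at -0.24, POLR2D at -0.31, POLR2E at -0.39, POLR2F at -0.69, POLR2H at -0.36, POLR2I at -0.41, POLR2K at -0.37, POLR2L at -0.84, POLR3G at -0.83 and POLR3K at -0.60.

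Between the 24 h and the 8 h response to 8AA in KG-1a (24 h minus 8 h), the members that differed included POLR1A at -0.44, POLR1B at -0.21, POLR2D at -0.29, POLR2E at -0.40, POLR2F at -0.51, POLR2H at -0.33, POLR2I at -0.43, POLR2J at -0.45, POLR2L at -0.52, POLR3B at -0.40 and POLR3GL at 0.36.

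For 8AA at 8 h, the response in MV4-11 minus that in KG-1a differed for POLR1B at 0.33, POLR1D at 0.27, POLR2A at 0.24, POLR3C at 0.36 and POLR3GL at 0.48.

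For 8CA at 24 h, the response in MV4-11 minus that in KG-1a differed for POLR1A at 0.34, POLR2A at 0.21, POLR2F at 0.36 and POLR3G at 0.78.

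For 8AA at 24 h, the response in MV4-11 minus that in KG-1a differed for members that included POLR1A at 0.89, POLR1B at 0.73, POLR1C at 0.49, POLR1E at 0.40, POLR2A at 0.29, POLR2F at 0.35, POLR2H at 0.23, POLR2I at 0.42, POLR3A at 0.24, POLR3B at 0.60, POLR3C at 0.31, POLR3D at 0.64, POLR3E at 0.21, POLR3G at 0.74 and POLR3K at 0.47.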

How the results depend on the processing

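None of the 104 treated calls of members reversed under an alternative, and 70 held in all. Of 936 values under alternatives that kept every library, 39 lost the call, and of 416 that left out a library, 90 did. With 2 libraries per group, small changes of members with few reads are the least certain, and no cause of a lost call was tested.

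Members called higher in MV4-11 with 8CA at 8 h numbered 1 with library size, upper quartile or the replicate block, against 0. With 8AA at 8 h they numbered 3 with library size and 2 with upper quartile, at least 10 counts in every library, the replicate block or all 24 libraries, against 1. With 8AA at 24 h they numbered 2 with library size or all 24 libraries and 0 with DESeq2, against 1. In KG-1a with 8AA at 8 h they numbered 1 with library size, no filter, the replicate block or the compared libraries alone, against 0. Between the drugs, MV4-11 at 8 h gave 4 with upper quartile, 3 with DESeq2 and 0 with the compared libraries alone, against 7, and KG-1a gave 17 at 8 h and 10 at 24 h with the compared libraries alone, against 11 and 16. Between times, 8CA in MV4-11 gave 3 with DESeq2 against 5, and 8AA in KG-1a gave 7 with DESeq2 or the compared libraries alone against 11.

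Leaving out 1 library gave 3 to 5 lower in MV4-11 with 8CA at 8 h, 2 to 3 higher with 8CA at 24 h, 0 higher and 4 to 8 lower with 8AA at 24 h, and in KG-1a 0 to 1 higher and 8 to 10 lower with 8AA at 8 h and 1 to 2 higher with 8CA at 24 h. Between the drugs it gave 0 to 3 in MV4-11 at 8 h and 2 to 5 at 24 h. Between times it gave 2 to 5 (8CA) and 0 to 3 (8AA) in MV4-11 and 8 to 12 and 2 to 20 in KG-1a. Between lines it gave 2 to 4 with 8AA at 8 h, 1 to 3 with 8CA at 24 h and 9 to 16 with 8AA at 24 h.

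Whether the letters pair libraries across groups is not given by the labels. With the letter as a replicate block, 11 members differed between the drugs in MV4-11 at 24 h against 7, and no treated call was lost.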
